A study of Mus musculus with 4 samples.

Results

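The genes described here are 9 members of the gp130 cytokine family in the mouse tail disc, of 32285 genes in the count matrices. They are the ligands Il11, Il6 and Lif, the ligand-specific receptor chains Il11ra1, Il6ra, Osmr and Lifr, the shared receptor chain Il6st, and the feedback inhibitor Socs3. They were taken by symbol, and each symbol matched 1 row of the gene tables.

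Intervertebral discs of wildtype female C57BL/6 mice, 12 weeks old, were profiled by droplet single-cell RNA sequencing 7 days after needle injury. Injured discs had been punctured from both sides with a 30-gauge needle, and control discs were unpunctured discs from levels nearer the tip of the same tails. Discs of 6 mice were pooled to 30 discs per group (whether in each round or over both is not given in the sources used here), made into a cell suspension, snap frozen, thawed and sorted for viable cells. A control and an injured library were made in each of 2 rounds, so each group held 2 libraries. Because every control disc lay further along the tail than every injured disc, injury and tail level cannot be told apart. Each library is a pool, so the p-values below measure the spread between 2 pools per group and not between mice.

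Interleukin 11, interleukin 6 and leukemia inhibitory factor (LIF) are secreted proteins that signal through gp130, the product of Il6st. Interleukin 11 and interleukin 6 first bind their own receptor chains, whereas LIF brings gp130 together with the LIF receptor, and the oncostatin M receptor chain is the partner of gp130 for oncostatin M. Bound gp130 activates Janus kinases and the transcription factor STAT3, and STAT3 switches on Socs3, whose product binds gp130 and damps the signal. Interleukin 11 is known for its actions in stromal and bone-forming tissue and in fibrosis, and interleukin 6 is known for the acute-phase response and for inflammatory signalling in degenerating discs.

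The sequences before the transcription starts of the 3 ligand genes and of Socs3 are shown because these are the members where a searched motif was found. Each run holds the 250 bases before a RefSeq start (build GRCm38.p6), written 5′ to 3′ on the strand of the gene, with matches in capitals.
Il11 at chr7:4778142-4778391, minus strand: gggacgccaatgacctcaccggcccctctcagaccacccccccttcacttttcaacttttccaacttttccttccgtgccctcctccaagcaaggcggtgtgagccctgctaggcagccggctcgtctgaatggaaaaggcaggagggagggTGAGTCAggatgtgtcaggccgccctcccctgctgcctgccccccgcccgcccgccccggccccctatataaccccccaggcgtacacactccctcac
Il6 at chr5:30012864-30013113, plus strand: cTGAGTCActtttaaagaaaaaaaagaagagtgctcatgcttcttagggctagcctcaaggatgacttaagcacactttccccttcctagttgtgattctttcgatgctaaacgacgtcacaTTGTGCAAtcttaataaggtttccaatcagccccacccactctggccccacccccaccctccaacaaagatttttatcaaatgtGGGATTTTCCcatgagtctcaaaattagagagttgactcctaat
Lif at chr11:4257318-4257567, plus strand: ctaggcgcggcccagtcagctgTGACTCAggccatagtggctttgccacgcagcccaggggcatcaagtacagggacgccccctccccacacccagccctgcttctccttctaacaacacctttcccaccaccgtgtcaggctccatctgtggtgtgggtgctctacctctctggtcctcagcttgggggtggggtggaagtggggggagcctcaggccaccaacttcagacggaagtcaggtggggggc
Socs3 at chr11:117969367-117969616, minus strand: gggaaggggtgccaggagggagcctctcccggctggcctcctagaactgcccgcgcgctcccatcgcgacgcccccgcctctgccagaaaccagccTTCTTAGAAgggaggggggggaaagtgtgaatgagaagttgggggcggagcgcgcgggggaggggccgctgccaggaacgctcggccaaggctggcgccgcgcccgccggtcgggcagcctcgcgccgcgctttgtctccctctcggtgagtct

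Motifs were searched on both strands, with no overlap between the matches of different motifs: TGANTCA for AP-1, TTCNNNGAA for STAT factors, TTGCNNAA for C/EBP factors, GGGNNNTTCC for NF-kB and TGACGTCA for the cyclic AMP response element. The printed windows of all 3 ligand genes held an AP-1 match, which 6.75% of 32851 such windows hold. In Il11 it lay 98 to 92 bases before the start, in Il6 249 to 243 bases before it and in Lif 228 to 222 bases before it. The Il6 window also held a C/EBP match (9.56% of all windows) and an NF-kB match (4.65%). The Socs3 window held a STAT match 154 to 146 bases before the start, which 7.02% of windows hold, and the cyclic AMP response element, in 1.55% of windows, was in none of the members' windows. The windows of Il6ra, Il6st, Osmr, Il11ra1 and Lifr, and the other window of Il11, held no match, which says only that these letters were not in those bases. The printed Il11 window lies inside an intron of its longer transcripts, directly before the first exon of the shortest one. The Socs3 window overlaps an exon of a noncoding Socs3 transcript, and the last bases of the Lif window overlap the first exon of a Lif transcript that starts slightly earlier.

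On GRCm38 with GENCODE annotation, Il11 (ENSMUSG00000004371) lies at chr7:4772373-4782859 on the minus strand, Il6 (ENSMUSG00000025746) at chr5:30013114-30019981 on the plus strand and Lif (ENSMUSG00000034394) at chr11:4257557-4272514 on the plus strand. Il6st (ENSMUSG00000021756) lies at chr13:112464070-112510086 and Socs3 (ENSMUSG00000053113) at chr11:117966079-117970047. Osmr and Lifr both lie on chromosome 15. Il11ra1, on chromosome 4, has near-identical copies named Il11ra2 in 3 rows of the gene tables, all with 0 UMIs, so Il11ra1 counts are uncertain: reads shared with the copies could have been dropped.

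The libraries differed in size and depth. Barcodes with at least 250 detected genes were kept as cells, as the study did, giving 378 control and 778 injured cells in round 1 and 856 control and 1834 injured cells in round 2. Total unique molecular identifiers (UMIs, one per captured transcript) ran from 1114210 to 16972879 per library, and the median per cell was 1061.5 and 836 in the controls against 7033.5 and 4635 in the injured libraries. Of the round 1 control cells, 159 carried a barcode that held at least 0.3 times as many UMIs in the round 1 injured library. For 104 of these the injured library held 29.2 to 44.8 times as many UMIs, and for 55 it held 0.631 to 0.829 times as many. The 104 barcodes included 94 inner annulus or cartilage-like cells and held 37 of the 109 Il11 UMIs of that control library. The other 219 cells held 72. The tests and levels of the injury comparison below are given with and without the shared barcodes where these change a call or a level that a result turns on, and the shares of cells with a UMI include them.

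Cells were clustered into 19 clusters and classed by marker genes. The inner annulus or cartilage-like class (1995 cells in 5 clusters) was named from markers such as Acan, Col2a1, Sox9 and Comp, and the outer annulus or fibroblast-like class (649 cells in 4 clusters) from markers such as Col1a1, Col1a2, Scx and Thbs4. Small macrophage-like, endothelial-like, mural-like, nucleus pulposus-like and skeletal muscle-like groups were also named, and 849 cells stayed unnamed. The unnamed cells numbered 94 and 448 in controls and 146 and 161 in injured libraries, and they enter the comparisons over all cells. Among them, cluster 12 carried Krt18, Krt8 and Epcam, cluster 14 B or plasma cell markers (Igkc, Jchain) and cluster 19 pancreatic acinar markers (Ctrb1, Try5). These 3 clusters were left unnamed for their shared barcodes. Macrophage-like cells came almost wholly from the injured libraries (37 and 89 cells against 1 and 3), and nucleus pulposus-like cells from the controls (29 and 67 cells against 5 and 1). Levels are given in CPM, the UMIs of a gene for each 1000000 UMIs of the cells summed.

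Il11 was the member with the largest share in a single class. Of its 5955 UMIs, 96.6% were in the inner annulus or cartilage-like class, which held 70.4% of all UMIs. Within that class the highest level was in cluster 2 (leading genes Il11, Cxcl2 and Npy), at 1012 CPM over the 4 libraries, and the next in cluster 8 (Mmp12, Mmp3, Cxcl1), at 428. The other clusters of the class lay lower, at 201 in cluster 1 (Saa1, Chil1), 119 in cluster 4 (Fmod, Comp, Prg4) and 67.3 in cluster 3 (Grem1, Cnmd). Il11 helped to define cluster 2, so its level there is a description and not a finding. A single cell of the round 1 injured library held 261 Il11 UMIs, and the 10% of cells richest in it held 92.1% of the total.

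Outside that class Il11 was lower in most cells. Macrophage-like cells of the 2 injured libraries held 5.61 and 3.35 CPM, and mural-like cells 33.2 and 140, the latter on 8 UMIs in 19 cells. In controls, 0 of 29 and 0 of 67 nucleus pulposus-like cells had an Il11 UMI, which allows a share of up to 10.3% and 4.48% of cells with a UMI at a median depth of 1127 and 1388 UMIs. The median mitochondrial share in that cluster was 46.0% of UMIs, against 2.39% to 6.05% in clusters of the inner and outer classes, and its part in these zeros was not tested. Endothelial-like cells of round 1 injured discs held 17.4 CPM. In the outer annulus or fibroblast-like class, clusters 7 (Aspn, Cthrc1), 9 (Myoc, Angptl7) and 15 (dividing cells) held 19.3, 13.0 and 13.5 CPM, against 230 in cluster 10. Cluster 10 cells had a median of 623 UMIs, and 10 of its 150 cells carried its 62 Il11 UMIs.

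**Figure D1:**
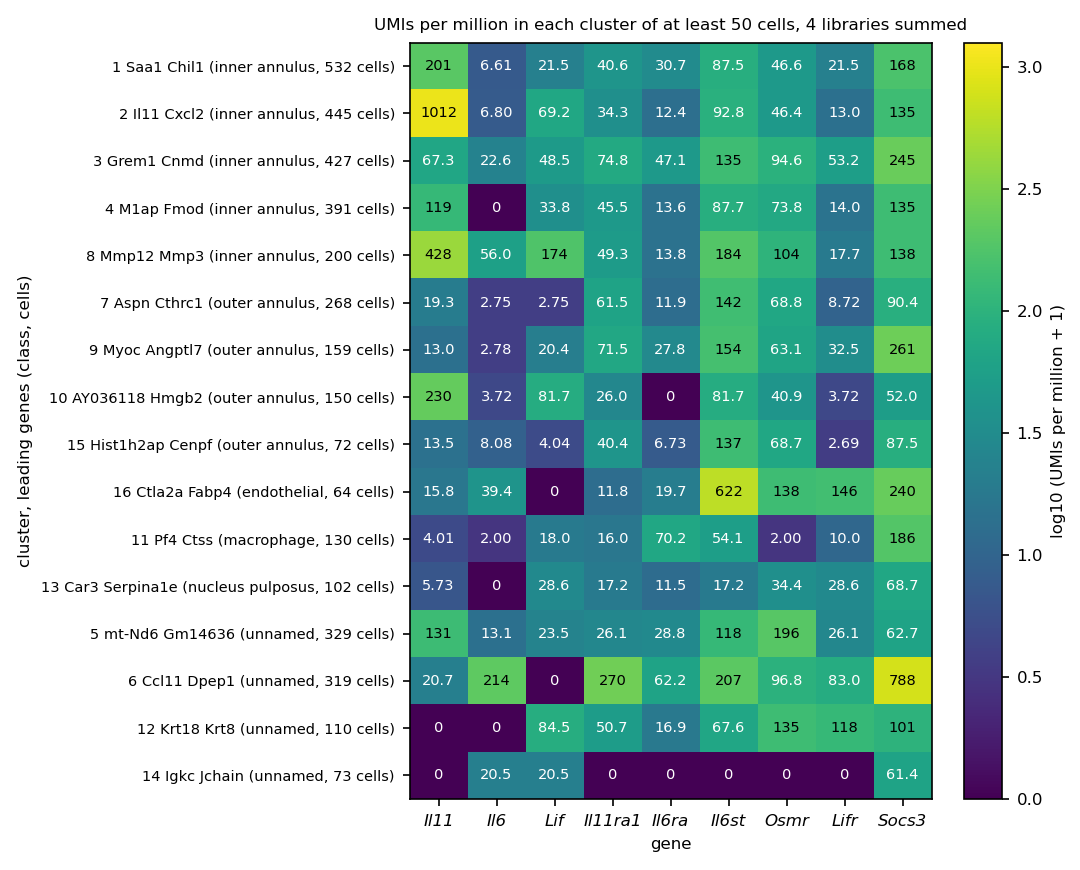
CPM of each gene (columns) in each cluster of at least 50 cells (rows, with its 2 leading genes, class and cell number), summed over the 4 libraries. Colour is log10 of the value plus 1 and the printed numbers are the values. Il11 reached 1012 in cluster 2, Il6st 622 in endothelial-like cells, and Osmr was at 2.00 in macrophage-like cells.

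Lif lay mostly in the inner annulus or cartilage-like class, which held 92.3% of its 1080 UMIs, with 174 CPM in cluster 8 and 69.2 in cluster 2. Within cluster 2 the Lif level was 10.4 CPM in round 1 injured discs and 166 in round 2 injured discs, whereas Il11 was 1090 and 919. Il6 had only 355 UMIs, in 129 cells. Of these, 158 were in the 200 cells of cluster 8, 33 of them in 8 cells of the round 1 control library, and 83 and 42 in 179 and 12 cells of the injured libraries. Its share in the inner class, 70.1%, was close to that class's 70.4% share of all UMIs. Mural-like cells, the contractile cells around vessels, held Il6 at 288 and 175 CPM in the 2 injured libraries, from 16 and 19 cells. The unnamed cluster 6 (Ccl11, Dpep1), with 267 of its 319 cells from the round 2 control library, held 254 CPM there, in 21 of those 267 cells. Cells of cluster 6 had a median of 385 UMIs. All 17 of its round 1 control cells carried barcodes with a similar number of UMIs in the round 1 injured library.

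The receptor chains had 64.5% to 71.0% of their UMIs in the inner class, close to its share of all UMIs. Il6st was detected in 1350 cells in all, with 622 CPM in endothelial-like cells (632 in the 36 cells of round 1 injured discs and 481 in the 16 cells of round 2) against 94.5 to 181 in the inner class and 121 to 232 in the outer class of single libraries. Lifr in endothelial-like cells was at 151 and 114 CPM in the 2 injured libraries. Il6ra, the chain that gives a cell its own response to interleukin 6, in macrophage-like cells was at 44.9 and 83.7 CPM in the 2 injured libraries. In the same 2 libraries the inner class was at 14.1 and 19.6 and the outer class at 18.9 and 10.6, so Il6ra was higher in macrophage-like cells in 2 of 2 libraries, on 8 and 25 UMIs there.

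Osmr, by contrast, was near 0 in macrophage-like cells, with 0 UMIs in 37 cells and 1 UMI in 89 cells of the 2 injured libraries. It ranged from 60.0 to 109 CPM in the inner class, from 28.0 to 94.3 in the outer class and from 55.2 to 321 in unnamed cells. In the 2 injured libraries it was at 139 and 45.8 in endothelial-like cells, on 24 and 2 UMIs. There it was at 365 and 70.2 in mural-like cells, on 33 and 4 UMIs. Its ligand Osm showed the opposite pattern: 30 of its 36 UMIs were in macrophage-like cells. Il11ra1 was at 42.3 to 77.5 CPM in the inner class and 54.4 to 84.0 in the outer class, ranges that overlap, and at 28.1 and 10.0 in macrophage-like cells. The ranges of the inner and outer classes also overlapped for Il6ra, Il6st, Osmr, Lifr, Lif and Socs3. Both classes came from the same libraries, and within a library Il11ra1 was higher in the outer class in 4 of 4 libraries and Lif higher in the inner class in 4 of 4. For Il11, every library's inner class level (118 to 605) was above every outer class level (5.09 to 67.3), and the same held for Il6 (12.7 to 73.2 against 2.55 to 10.3). The outer class held only 2 and 1 Il6 UMIs in controls and 2 and 11 in injured discs. Inner class Il6 in the injured libraries, at 15.9 and 12.7, was near the 11.8 and 10.5 of barcodes with 1 to 50 UMIs, the background described below. Socs3 was at 886 CPM in the 267 cells of cluster 6 in the round 2 control library. In endothelial-like cells it was at 814 and 419 CPM in the control libraries, from 7 and 5 cells, and at 151 and 183 in the injured libraries, from 36 and 16 cells.

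UMIs of ligand and receptor were found under the same cell barcode. Of 652 inner annulus or cartilage-like cells with an Il11 UMI, 30.8% had an Il11ra1 UMI and 52.8% an Il6st UMI, and 21.0% had both. Of 1343 such cells without an Il11 UMI, 23.2% had Il11ra1, 39.8% had Il6st and 11.5% had both. The round 1 control library went the other way for Il11ra1, with 13.3% of cells with an Il11 UMI against 16.4% of those without, and for both receptors, with 8.89% against 9.43%. The cells with an Il11 UMI were also deeper, with a median of 8124.5 against 4858 UMIs, and the part of depth in this difference was not tested.

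Across the 16 clusters of at least 50 cells, the genes whose log2 level (CPM, plus 10) was most like that of Il11 were Gm10561 (Pearson r = 0.94), Bmp2 (0.93), which encodes a bone morphogenetic protein, and P3h2 (0.93), which encodes a collagen prolyl hydroxylase. Yap1 (0.94), a growth regulator of the Hippo pathway, was most like Osmr. Taf11 (0.84) was most like Il6, Stx11 (0.80) most like Lif, Gnptg (0.93) most like Il11ra1, Atp7a (0.82) most like Il6ra, Osbp (0.91) most like Il6st, Midn (0.92) most like Lifr and Zbtb16 (0.89) most like Socs3. These correlations describe cell clusters that share libraries and depth. Il11 and Lif had an r of 0.52 with each other, and Il11 and Il6 one of 0.09.

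Some of the members' UMIs can come from free RNA. In barcodes with 1 to 50 UMIs, which hold too little RNA for a cell, Il11 was at 65.5 CPM in round 1 injured discs, 7.15 in round 2 controls and 28.2 in round 2 injured discs. The cells of the same libraries were at 8.0, 11.3 and 7.22 times these levels. The round 1 control lists no such barcodes. For Il6 the round 1 and round 2 injured cells were at 1.66 times (0.970 to 3.05) and 0.984 times (0.601 to 1.70) the level of those barcodes, and neither interval excludes 1, so Il6 was not separated from background in either injured library. Il6ra and Lifr in round 1 injured cells were both at 0.536 times their level in such barcodes (0.367 to 0.797 and 0.379 to 0.771), so the cells lay below these barcodes and the levels there were not separated from background. In round 2 injured cells the 2 genes were at 1.88 (1.16 to 3.23) and 1.77 (1.06 to 3.17) times it.

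Injured discs were then compared with control discs over all cells of each library, to ask which members differ 7 days after puncture. In round 1 Il11 stood at 102 CPM in control and 524 in injured discs, and in round 2 at 81.0 and 203. Both injured libraries were above both controls. Il6 was at 56.4 and 25 in controls and 19.6 and 10.3 in injured discs, and Lifr at 45.1 and 51.8 against 19.0 and 15.6. For both genes the 2 injured libraries lay below the 2 controls. Il6ra was at 24.4 and 52.8 against 16.1 and 18.7, again without overlap. Fewer cells of a type and less RNA per cell cannot be told apart in such sums.

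**Figure D2:**
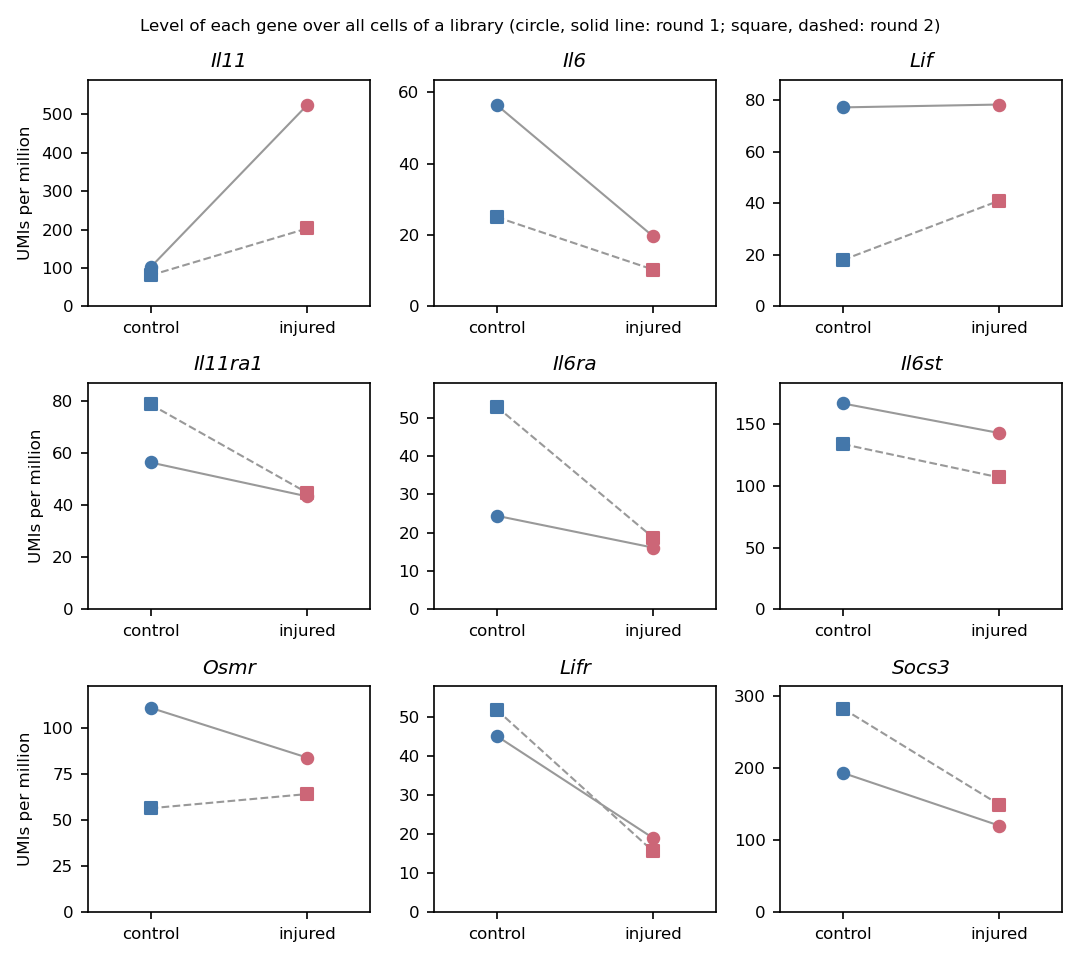
CPM of each gene over all cells of a library, for control and injured discs of round 1 (circles, solid line) and round 2 (squares, dashed line), 1 point per library and each axis from 0. Il11 rises from 102 to 524 and from 81.0 to 203, and Lifr drops from 45.1 to 19.0 and from 51.8 to 15.6.

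In edgeR's quasi-likelihood test with injury as the only term, 0 of the 9 members passed an adjusted p of 0.05 over all cells, where 10 of 11987 genes (0.0834%) did. At an unadjusted p under 0.05 there were 4 members, where 7.89% of all genes were, and DESeq2 called 1, Il11, where it called 1.5% of all genes. Control and injured discs came from the same tails within a round, so a second fit took the round as a block. With it 4 of 9 members passed, 1 higher and 3 lower in injured discs, where 6.70% of all genes passed, 3.04% higher and 3.66% lower. Il11 rose by 1.90 ± 0.29 on the log2 scale (SE, edgeR adjusted p = 9.32e-04 with the block, 0.269 without). Il6 fell by 1.34 ± 0.27 (edgeR adjusted p = 0.00725 with the block, 0.557 without), Lifr fell by 1.44 ± 0.26 (0.00370 and 0.261) and Il6ra fell by 1.05 ± 0.28 (0.0377 and 0.581). These are differences in measured level: in injured cells Il6 in both rounds, and Il6ra and Lifr in round 1, were not separated from, or lay below, the level of barcodes with 1 to 50 UMIs. The block leaves a single degree of freedom among 4 libraries, so these calls rest on the spread borrowed across genes.

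Leaving out the shared round 1 control barcodes ended the Il6ra call (edgeR adjusted p = 0.0915 with the block) at a similar log2 difference, -1.11 ± 0.28. The other 3 calls stayed, Il6 at 0.0485 in edgeR with the block, where 0.960% of all genes were higher and 1.12% lower. In round 1, 25 of the 60 Il6 UMIs of the control library were in 1 cell. Without the richest cell of each library the injured-to-control ratio of Il6 was 0.532 (95% exact interval 0.362 to 0.799, counting error only) in round 1, against 0.348 with it, and 0.329 (0.228 to 0.480) in round 2. Of the 54 Il6 UMIs of the round 2 control, 22 were in the inner class and 1 in the outer class. The unnamed cluster 6, described above, had 267 cells in that control and 7 in the round 2 injured library. The round 2 ratio of Il6 was 0.413 over all cells, 0.760 (0.471 to 1.28) in the inner class and 1.30 (0.190 to 56.2) in the outer class. Without the round 1 control library the log2 difference of Il6 was -0.65 in the fit without the block, against -1.38 with all libraries, and without the round 2 control library that of Il6ra was -0.43, against -1.10.

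The remaining members did not pass. Socs3 was at 193 and 282 CPM in controls and 120 and 149 in injured discs, which do not overlap, but its log2 difference of -0.74 ± 0.25 had an edgeR adjusted p of 0.0917 with the block. Il11ra1 had a log2 difference of -0.54 ± 0.24 (edgeR adjusted p = 0.214). Il6st, Osmr and Lif had log2 differences of -0.21 ± 0.24, -0.04 ± 0.26 and 0.62 ± 0.30, all above 0.05 after adjustment in edgeR. Lif differed between rounds: it was at 77.1 against 78.2 CPM in round 1 and at 18.0 against 41.0 in round 2.

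Among inner annulus or cartilage-like cells alone the picture was similar. Il11 was at 141 and 118 CPM in control libraries and at 605 and 304 in injured ones, a mean of 129 ± 16.2 against 454 ± 213 (SD, n = 2 libraries each). The log2 difference was 1.88 ± 0.32 (edgeR adjusted p = 8.53e-07 with the block, 0.239 without). The ratio was 4.30 (3.52 to 5.31) in round 1, 6.22 without the shared barcodes (97.3 CPM in that control), and 2.58 (2.19 to 3.06) in round 2. After thinning each cell to 1000 UMIs, 21.9% and 14.1% of the injured cells kept an Il11 UMI against 10.9% and 5.26% of the control cells (53.4% and 30.1% against 22.1% and 12.7% before thinning), with 85, 32, 7 and 26 shallower cells left out of control round 1, control round 2, injured round 1 and injured round 2.

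The receptor chains Il6ra and Lifr, and Il6, were lower in injured cells of the class with the block. Lifr stood at 35.9 and 55.5 CPM in controls and 16.1 and 18.7 in injured discs, and its log2 difference was -1.23 ± 0.32 (edgeR adjusted p = 0.00345 with the block, 0.474 without). Il6ra was at 27.3 and 64.6 against 14.1 and 19.6, with a log2 difference of -1.24 ± 0.32 (edgeR adjusted p = 0.00365 with the block, 0.572 without). Il6, at 73.2 and 16.7 against 15.9 and 12.7, had a log2 difference of -1.25 ± 0.34 (edgeR adjusted p = 0.00526 with the block, 0.639 without). The Il6 call ended when cells needed 500 genes, at a similar log2 difference of -1.31 ± 0.40 (edgeR adjusted p = 0.0510 with the block), and its ratio in round 2, 0.760 (0.471 to 1.28), did not exclude 1. Without the round 1 control library the log2 difference of Il6 was -0.05 in the fit without the block, against -1.48 with all libraries and -0.28 with classes by marker score, and without the round 2 control library that of Il6ra was -0.58. Without the shared barcodes the round 1 control held Il6 at 81.4 CPM, Il6ra at 28.7 and Lifr at 39.9, and the same 4 members passed with the block, where 5.42% of all genes were higher and 4.23% lower. In all, 0 of 9 members passed without the block, where 0.129% of 10881 genes did, and 4 of 9 passed with it, 1 higher and 3 lower, where 8.81% did (4.63% higher and 4.18% lower). The count at an unadjusted p under 0.05 without the block was 4, where 7.65% of all genes were, and DESeq2 called Il11, where it called 0.901% of all genes.

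**Figure D3:**
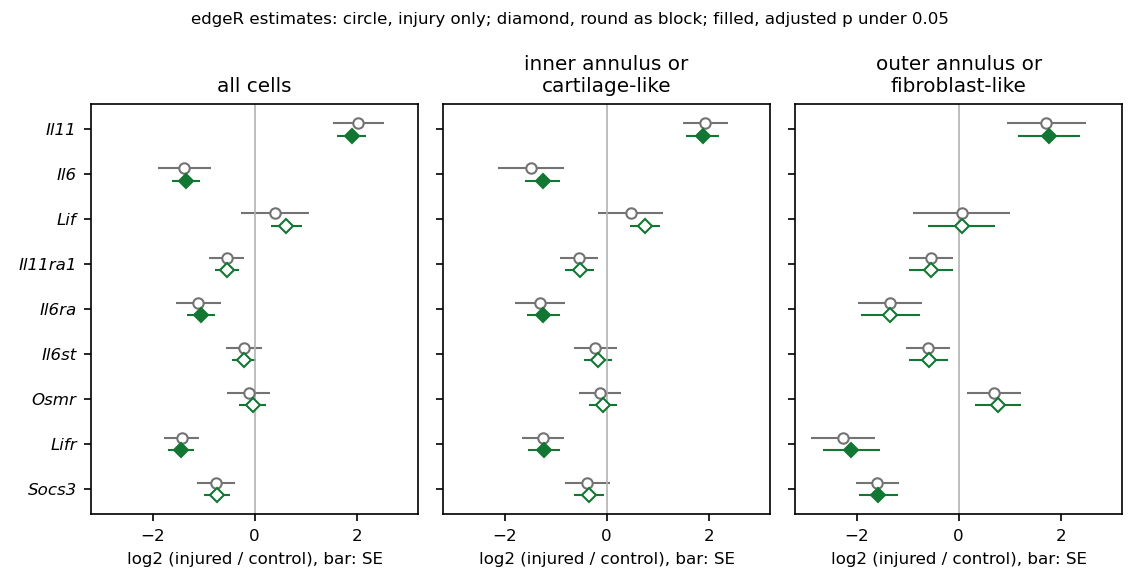
Estimated log2 ratio of injured to control for each gene over all cells, in the inner annulus or cartilage-like class and in the outer annulus or fibroblast-like class, from edgeR with injury only (circles) or with the round as a block (diamonds); bars are SE and filled symbols have an adjusted p under 0.05. No circle is filled, and Il11 is at 1.90, 1.88 and 1.77 with the block.

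The class does not hold the same clusters in both groups. Clusters 1, 2, 4 and 8 had 18, 191, 65 and 179 cells in round 1 injured discs and 491, 168, 293 and 12 in round 2 injured discs, against 3, 78, 17 and 8 and 20, 8, 16 and 1 in the controls. Of the 78 control cells of cluster 2 in round 1, 73 carried barcodes with more UMIs in the injured library. Cluster 3 (Grem1, a bone morphogenetic protein antagonist, and Cnmd, chondromodulin) was the one cluster of the class with over 30 cells in every library, 98 and 215 control cells against 34 and 80 injured cells.

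Within cluster 3 the class-level differences of Il11 and Lifr were not seen, and those of Il6ra and Il6 kept their direction without a call. Il11 stood at 89.8 and 53.8 CPM in controls and at 46.3 and 89.5 in injured discs, so it was lower in round 1 (ratio 0.516, 0.257 to 0.962) and higher in round 2 (1.66, 0.998 to 2.71). Its log2 difference was 0.03 ± 0.39 (edgeR adjusted p = 0.999 with the block). Lifr was at 38.8 and 60.9 against 57.0 and 51.6, with a log2 difference of 0.18 ± 0.42 (edgeR adjusted p = 0.999 with the block). Il6ra was at 29.9 and 66.0 against 28.5 and 34.4, with a log2 difference of -0.52 ± 0.48 (edgeR adjusted p = 0.999 with the block). Il6 was at 31.7 and 22.3 against 21.4 and 6.88, on 18 and 22 control UMIs and 6 and 2 injured UMIs, too few to test. Socs3 was at 141 and 319 against 143 and 296, and its groups overlap. Osmr was the member with higher levels in both rounds, at 109 and 59.9 in controls and 153 and 127 in injured discs, with a log2 difference of 0.84 ± 0.34 (edgeR adjusted p = 0.410 with the block). Neither fit called any of the 8 members tested in cluster 3, where the block called 62 of 5486 genes (1.13%). With the block 1 of the 8, Osmr, had an unadjusted p under 0.05, where 6.98% of genes did. These cells are fewer, so smaller differences would not be detectable. Clusters were made from expression in both groups together, and Il11 led cluster 2, so cells with raised Il11 may lie outside cluster 3. The flat Il11 there therefore cannot decide whether Il11 changed in cells of this kind. In cluster 4, Il11 was at 176 and 13.0 CPM in controls, on 3 and 1 UMIs, and at 120 and 122 in injured discs.

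**Figure D4:**
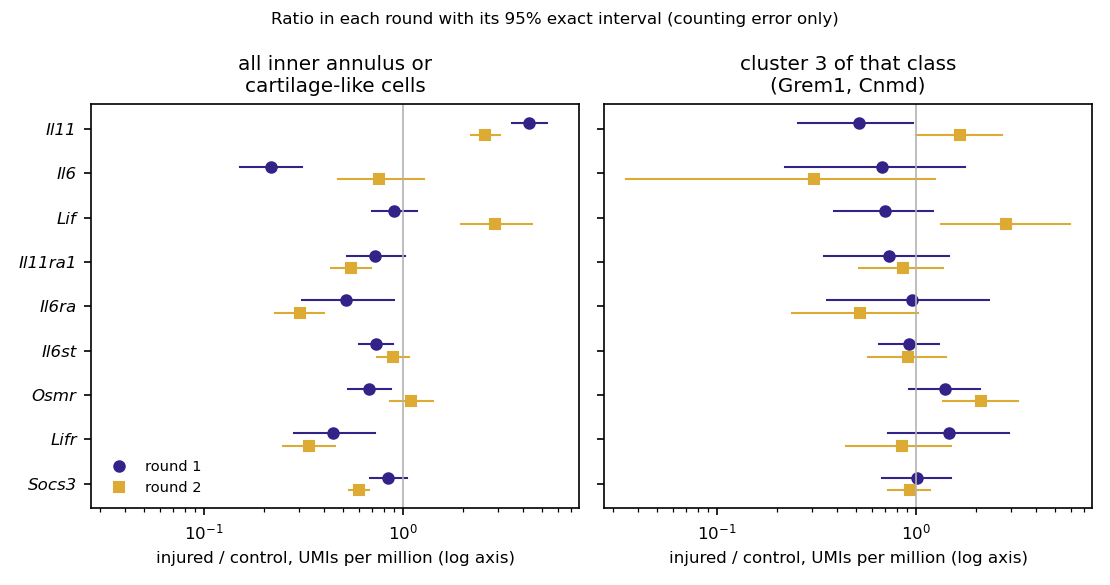
Ratio of injured to control CPM in round 1 (circles) and round 2 (squares), on a log axis, with 95% exact intervals that cover counting error only, for all inner annulus or cartilage-like cells and for cluster 3 of that class. Il11 is at 4.30 and 2.58 in the class, and at 0.516 and 1.66 in cluster 3. The clusters were made from the expression of these same cells.

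In the outer annulus or fibroblast-like class, Socs3 and Lifr were the members with the lowest adjusted p in edgeR with the block. Socs3 stood at 325 and 278 CPM in controls and at 102 and 105 in injured discs, with no overlap, and its log2 difference was -1.57 ± 0.38 (edgeR adjusted p = 9.73e-04 with the block, 0.0887 without). Lifr was at 61.8 and 33.1 against 13.5 and 8.16, with a log2 difference of -2.10 ± 0.56 (edgeR adjusted p = 0.00368 with the block, 0.0992 without), on 12 and 13 control UMIs and 5 and 27 injured UMIs. Il11 was at 25.8 and 5.09 against 67.3 and 29.0, with a log2 difference of 1.77 ± 0.61 (edgeR adjusted p = 0.0371 with the block, 0.358 without). The control levels rest on 5 UMIs in 1 cell and 2 UMIs in 2 cells. In the background barcodes described above, Il11 was at 65.5 CPM in round 1 injured discs and 28.2 in round 2 injured discs. It was at 7.15 there in round 2 controls, and the round 1 control lists no such barcodes. The outer class levels of the same libraries, 67.3, 29.0 and 5.09, were near these values. The part of free RNA in the Il11 difference of this class was not tested. Without the richest cell of each library Il11 was at 0 and 2.71 CPM in controls and at 23.6 and 22.3 in injured discs. The Il11 call ended when cells needed 500 genes, at a log2 difference of 1.74 (edgeR adjusted p = 0.0501 with the block). Of 8 members tested (Il6 had too few UMIs), 0 passed without the block, where 1.81% of 5016 genes did. With it 3 passed, 1 higher and 2 lower, where 10.7% of genes did (5.54% higher and 5.18% lower). Without the block, 3 members had an unadjusted p under 0.05, where 12.8% of genes did, and DESeq2 called 0, where it called 1.91% of genes. Without the shared barcodes Il11 was at 26.4 CPM, Socs3 at 323 and Lifr at 63.5 in the round 1 control, and all 3 passed with the block, where 5.63% of genes were higher and 5.72% lower. In the fit without the block the log2 difference of Il11 was 1.72, with 3.09 without the round 1 control library and 0.68 without the round 2 control library.

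Cluster 10, the low-UMI cluster, held most of the Il11 UMIs of the outer class in 1 library. Of the 25 Il11 UMIs in round 1 injured cells of the class, 23 were in 2 cells of that cluster. Without cluster 10, Il11 stood at 26.5 and 5.22 CPM in controls and at 6.76 and 18.2 in injured discs, which overlap, and too few UMIs were left to test it. Without that cluster Socs3 kept levels of 323 and 284 against 112 and 109, with a log2 difference of -1.49 ± 0.36, and edgeR's adjusted p was 0.0539 with the block. Lifr had a log2 difference of -1.89 ± 0.52 without it (edgeR adjusted p = 0.0752 with the block). Both calls ended there at differences close to those with all clusters, -1.57 and -2.10.

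A test of whether the injury difference itself differed between the inner and outer classes called 0 of the 9 members, where edgeR called 28 of 9312 genes (0.301%). At an unadjusted p under 0.05 there was 1 of 9 members, Socs3, a share near the 8.16% of all genes. Its difference in the inner class minus that in the outer class did not pass, at 1.2 ± 0.44 on the log2 scale (edgeR adjusted p = 0.439). For Il11 the same contrast was 0.11 ± 0.66 (edgeR adjusted p = 0.992).

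The wider pathway was read from lists of other ligands, receptors, signal transducers, inhibitors and target genes. Among the other ligands, Clcf1, which encodes cardiotrophin-like cytokine, was at 42.3 and 10.6 CPM in controls and at 83.2 and 17.6 in injured discs over all cells (edgeR adjusted p = 0.0563 with the block). In the inner class it was at 47.4 and 8.36 against 92.9 and 20.3, and it rose by 1.2 ± 0.33 on the log2 scale (edgeR adjusted p = 0.00774 with the block, 0.80 without). The 4 other receptor chains had 16 UMIs (Cntfr), 7 (Il31ra), 3 (Il27ra) and 0 (Il11ra2) over all cells, too few to test.

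None of the 11 signal transducers passed over all cells with or without the block, although 10 of the 11 estimates were below 0 and the median log2 difference was -0.27 with the block, beside -0.01 over all genes tested. Stat3 was at 159 and 177 CPM in controls and at 118 and 166 in injured discs, and Jak1 at 145 and 87.0 against 99.7 and 78.8. Of 10 other feedback inhibitors, 1 was higher and 1 lower with the block, where 3.04% and 3.66% of all genes were. Socs2, which damps growth hormone signalling, was at 46.0 and 30.1 against 127 and 52.8 (log2 1.19 ± 0.26, edgeR adjusted p = 0.0116 with the block). Cish was lower on few UMIs (log2 -2.23, edgeR adjusted p = 0.0484 with the block). Neither passed over all cells without the shared barcodes. In the inner class Socs2 was at 41.6 and 22.0 against 130 and 44.4 (edgeR adjusted p = 1.04e-04 with the block), and it passed there without the shared barcodes too. The most abundant phosphatase of the list, Ptpn1, was at 91.1 and 71.3 against 61.2 and 61.8 (edgeR adjusted p = 0.508 with the block). Of the 8 genes of soluble receptor release and Il6 transcript control, none passed in any class, and Nfkbia was at 632 and 691 against 510 and 644 and Nfkbiz at 304 and 217 against 280 and 207.

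Genes known to respond to STAT3 moved both ways. Of 24 tested over all cells, 6 were higher and 4 lower with the block (0 and 0 without), where 3.04% of all genes were higher and 3.66% lower, and the median log2 difference was 0.11 beside -0.01 over all genes. Among the genes that rose with the block were Lcn2, an iron-binding protein, from 494 and 497 to 1617 and 1329 CPM (log2 1.63 ± 0.30, edgeR adjusted p = 0.00423 with the block), Timp1, a protease inhibitor, from 358 and 178 to 1133 and 1511 (log2 2.44 ± 0.38, 0.00103) and Serpina3n, another protease inhibitor, from 27.3 and 18.0 to 241 and 147 (log2 3.15 ± 0.28, 3.92e-06). Saa3, an acute-phase apolipoprotein, went from 6.58 and 1.85 to 26.0 and 233 (log2 5.23 ± 0.71, 3.11e-04), with most of the difference in round 2. Tnfrsf1b (log2 1.81) and Bcl3 (log2 1.24) also passed with the block. Myc fell, from 128 and 183 to 31.2 and 56.5 (log2 -1.79 ± 0.26, 4.50e-04), and so did Fos (log2 -1.66 ± 0.33, 0.00617). Without the shared barcodes 4 were higher and 1 lower with the block, where 0.960% and 1.12% of all genes were. In the inner class 7 were higher and 4 lower of 22 with the block (4.63% and 4.18% of all genes), among them Hp (log2 -1.83, lower in round 1 and at 0 against 1.94 in round 2) on the lower side, and Serpina3n also passed without it (edgeR adjusted p = 0.0475). In the outer class 4 were higher and 6 lower of 17 (5.54% and 5.18% of all genes), with Timp1 passing without the block too (log2 4.38, edgeR adjusted p = 0.0188), Il4ra higher (log2 1.75, though lower in round 1 and higher in round 2) and Bcl6 lower (log2 -1.76).

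The immediate early and tissue dissociation genes, which move with handling of tissue, had a lower summed level in injured than in control discs within each round, over all cells and in both main classes. This summed level was 11018 and 14088 CPM in controls and 7969 and 7700 in injured discs over all cells, with 15124 and 11825 against 11485 and 5199 in the outer class and 8232 and 15646 against 7299 and 8748 in the inner class. Over all cells 0 of 18 passed in either direction without the block. With it 1 was higher and 10 lower (3.04% and 3.66% of all genes), with a median log2 difference of -1.03, and without the shared barcodes 0 passed either way with a median of -1.07. In the outer class 0 were higher and 8 lower of 17 tested with the block (5.54% and 5.18% of all genes), and 0 passed without it. In the inner class 1 was higher and 5 lower of 18 with the block (4.63% and 4.18% of all genes), and 0 passed without it. The most abundant gene, Ier3, was at 1270 and 568 against 2496 and 1344 (edgeR adjusted p = 0.0376 with the block), and Jund at 1236 and 1562 against 667 and 1097 (0.251). Among the lower genes were Egr1 (log2 -1.64), Nr4a1 (-1.64), Fosb (-1.35), Hspa1a (-1.28) and Atf3 (-1.22) over all cells, Hsp90aa1 (-1.16) in the inner class, and Btg2 (-2.01) and Zfp36 (-1.95) in the outer class. Their part in the lower Socs3 and Il6 of injured discs was not tested.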

How the data were processed

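The matrices the authors deposited hold UMI counts for each gene in each barcode. Cell Ranger and mouse genome mm10 were used, per the labels and the file headers, which name version 6.0.0 for the round 1 control and version 4 for the other 3 libraries. Barcodes with at least 250 genes and genes in at least 5 cells were kept, as the study did. The round 1 control matrix lists no barcodes with few UMIs. Cells were normalised to 10000 UMIs, reduced to 30 components of 2000 variable genes and clustered with Leiden at resolution 1.2 (Python 3.11.15, scanpy 1.11.5, leidenalg 0.10.2). Called doublets (2 to 5 per library, so the caller marked few) were kept and left out in an alternative. For each library, counts of all cells or of a class were added up and tested with edgeR 4.0.16 in R 4.3.3 (TMM, filterByExpr, quasi-likelihood test, Benjamini-Hochberg adjustment, threshold 0.05), with DESeq2 1.42.0 as an alternative, and the scripts were tested on simulated data.

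The labels state that control and injured discs of a round came from the same animals, which pairs the libraries. The differences of round 2 from round 1 correlated between control and injured libraries with r = 0.508 (all cells), 0.536 (inner class) and 0.303 (outer class), across genes and over 2 pairs. The fit without the round block is the primary one and the blocked fit is given beside it.

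Intervals are exact at 95% and, like the limit of 3 counts at a count of 0, cover counting error only. The members and gene lists were chosen with earlier results of these data known. The text names the 9 members, from each list the 2 genes with the most UMIs and genes that passed (at most 5 per list and comparison), and the genes most like each member. Promoter sequences are from RefSeq on GRCm38.p6, where all 9 members matched, and gene positions from GENCODE on GRCm38. 1 gene of the ligand list is not reported here.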

Additional observations from a re-analysis of the deposited data

Results flagged for a closer look

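Barcodes with 1 to 50 UMIs, which enter no comparison between groups, held more Il11, Il6st and Lifr in the round 1 injured library than in the round 2 control library. Il11 was at 65.5 CPM in the round 1 injured library and at 28.2 in the round 2 injured library, against 7.15 in the round 2 control library. Il6st was at 48.1 and Lifr at 35.5 in the round 1 injured library, against 27.7 and 15.3 in the round 2 control library. The round 2 injured library was at 31.5 for Il6st and, below that control, at 8.83 for Lifr. The round 1 control library lists no barcodes of this size, so the comparison with it was not possible. The part of these barcodes in the levels of the cells was not tested.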

How the results depend on the processing

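The number of genes called over all cells, 10 without a block, was 803 with the replicate block, 34 with no filter on low counts, 180 with DESeq2, 0 with at least 500 genes per cell (902 at an unadjusted p under 0.05 in edgeR), 19 with under 10% mitochondrial UMIs, 17 without called doublets, and 2 and 3 without the shared round 1 barcodes (those also listed as deep in the injured library, or all of them). In the inner class, 14 became 959 with the replicate block, 27 with no filter, 98 with DESeq2, 4 with classes by marker score and 0 in cluster 3 only (97 at an unadjusted p under 0.05 in edgeR; 62 with the block). In the outer class, 91 became 538 with the replicate block, 290 with no filter, 34 with classes by marker score and 44 without cluster 10 (147 with the block). The class by injury count, 28, became 151 with no filter. With the replicate block, the counts over all cells, in the inner class and in the outer class were 817, 998 and 556 with DESeq2's size factors, 247, 1047 and 583 without the shared barcodes, and 1140, 707 and 522 with at least 500 genes per cell. Leaving out 1 library gave 124 to 271, 80 to 210 and 35 to 569 genes. The cause of these differences was not tested. The settings without all shared barcodes, with cluster 3 only and without cluster 10, and those that join the block with another choice, were chosen after seeing the data.

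No member passed in the fit without the block, so no member call could reverse. In alternatives without the block, Il11 passed over all cells and in the inner class without the round 2 injured library (edgeR adjusted p = 1.91e-04 and 0.0161), Il6 in the inner class without the round 2 control (0.0100, but 0.996 without the round 1 control), and Lifr and Socs3 in the outer class without the round 1 injured library (0.0153 and 0.0476). Each of these fits has 1 library in an arm, which is assumed to vary like the 2 of the other arm. Over the 13 fits without the block, the Il11 estimate over all cells ran from 1.26 to 2.55 on the log2 scale, with adjusted p from 1.91e-04 to 0.359, that of Lifr from -1.52 to -1.31, that of Il6 from -1.87 to -0.65 and that of Il6ra from -1.49 to -0.43. Lif ran from -0.32 to 1.81 and so had no stable sign, and Osmr from -0.53 to 0.49. In the inner class Il6 ran from -2.26 to -0.05 over 14 fits. The replicate block cannot be joined with leaving out a library, since no residual degrees of freedom remain. Low UMI totals limit Il6, Il6ra and Lifr.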
